A study of Mus musculus with 12 samples.

Results

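The genes described here are those of the cytosolic ribosomal proteins, the protein part of the ribosomes that translate nuclear mRNAs. They were taken as every row of the count table whose symbol is Rpl, Rps or Rplp followed by a number and at most a short suffix of a, x, y, l or digits, with rows marked -ps left out. This gave 89 genes of 54532 in the table. They comprise 43 genes of large subunit proteins, 30 of small subunit proteins, the 3 genes of the P stalk (Rplp0, Rplp1 and Rplp2) and 13 paralogues, which are copies of a core gene with a suffix such as l. For 87 of the 89 the average log2CPM (log2 of CPM, the counts per 1e+06 counts of the library total after multiplication by its TMM scaling factor, which is explained below) was at least -3, the level required for testing. The other two, Rpl10l and Rps12l1, had 0 counts in all 12 mice. Rpl10l is known from male germ cells.

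A cytosolic ribosome is built from a large and a small subunit, and cells make its proteins in matched amounts. Most ribosomal protein mRNAs begin with a C followed by a run of pyrimidines, the terminal oligopyrimidine (TOP) motif, through which mTORC1 and the mRNA-binding protein Larp1 set their translation, while Myc raises transcription of ribosomal protein genes and of the factors that assemble ribosomes. Cyst epithelium of polycystic kidneys is known for growth and proliferation and for high mTORC1 and Myc activity.

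The samples were whole kidneys from 12 mice aged 18 days, in 4 groups of 3, with the strain C57BL/6 in the labels and a C57BL/6 J background in the study's methods. All mice carried 1 Pkd1 RC allele, a hypomorphic missense allele, and 1 floxed Pkd1 allele. The noncystic mice (control in the labels) had no Cre and are called Pkd1 RC/+, and the cystic mice carried Ksp-Cre, which is driven by the kidney-specific cadherin promoter in tubule epithelium and turns the floxed allele into a null allele (Pkd1 RC/-). Each setting had a Pkd2+/+ group and a Pkd2 Δ17/Δ17 group (Pkd2_UTR_DD in the labels), in which the miR-17 motif had been removed from both copies of the Pkd2 3′-UTR in all cells by CRISPR/Cas9. By their numbers in the labels, mice 19 to 21 were noncystic without the deletion and 22 to 24 noncystic with it, and mice 25 to 27 were cystic without the deletion and 28 to 30 cystic with it. Cysts, Pkd1 loss and Cre go together in this design, and their effects cannot be told apart.

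Library totals ran from 18800307 to 24453033 counts. Pkd2 itself was at 194 to 219 CPM in noncystic kidneys with Pkd2+/+ and at 270 to 286 CPM in those with the deletion, and the ranges in cystic kidneys were 213 to 233 and 307 to 337 CPM, so the groups did not overlap within a setting. Gene-level counts do not check the deleted motif or the deleted Pkd1 exons. Kidney markers were present in all mice: the summed level of 6 proximal tubule genes was 6674 to 8507 CPM in noncystic and 2527 to 4630 in cystic kidneys, and that of 6 macrophage genes was 112 to 134 against 215 to 392.3. In whole-tissue RNA, fewer cells of a type and less RNA per cell cannot be told apart.

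The start of a ribosomal protein gene is shown for 11 members, because the pyrimidine run there is the feature that marks a TOP mRNA. RefSeq start sites on GRCm38.p6 were found for 64 of the 89 genes. Each window holds 10 bases before the annotated start and 20 bases from it, on the coding strand. Capitals mark the longest run of C and T within 5 bases of the start, where that run had at least 5 bases.
Rps6 (chr4:86857348-86857377, minus strand): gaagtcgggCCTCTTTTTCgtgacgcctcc
Rps27 (chr3:90213629-90213658, minus strand): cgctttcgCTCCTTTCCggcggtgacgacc
Rps18 (chr17:33955646-33955675, minus strand): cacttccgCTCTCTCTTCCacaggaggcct
Rps26 (chr10:128626487-128626516, minus strand): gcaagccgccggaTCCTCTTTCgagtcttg
Rpl14 (chr9:120571507-120571536, plus strand): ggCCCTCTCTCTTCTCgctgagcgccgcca
Rpl15 (chr14:18270967-18270996, minus strand): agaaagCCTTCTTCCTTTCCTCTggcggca
Rplp2 (chr7:141447641-141447670, plus strand): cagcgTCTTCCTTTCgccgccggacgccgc
Rpl12 (chr2:32961702-32961731, plus strand): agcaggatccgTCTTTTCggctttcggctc
Rps4x (chrX:102189372-102189401, minus strand): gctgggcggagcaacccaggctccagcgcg
Rplp0 (chr5:115559457-115559486, plus strand): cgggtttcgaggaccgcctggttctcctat
Rpl3l (chr17:24727816-24727845, plus strand): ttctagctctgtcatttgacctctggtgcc
The first 8 carry such a run at or beside the annotated start. The last 3 have no run of at least 5 bases within 5 bases of it, though Rplp0 and Rpl3l hold one further into the window. Annotated starts need not be those used in kidney, and a window without capitals says only that no such run lies near the annotated start.

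Pyrimidine runs were more frequent among the members than among all genes. A run of at least 8 bases of C or T within 5 bases of the start was found in 34.4% of the 64 members and in 9.63% of 27025 genes with a RefSeq start. For runs of at least 5 bases the shares were 54.7% and 32.9%. Within the 300 bases from 250 before to 50 after the start, searched on both strands, CCGGAAG (a site of ETS family factors) was present in 37.5% of members and 9.12% of all genes, and AAGATGG (a site of YY1) in 14.1% and 6.48%. TATAAA was present in 10.9% of members and 14.2% of all genes. Among the 14896 tested genes with a RefSeq start, the shares were 14.2% for CCGGAAG, 6.55% for AAGATGG and 9.08% for TATAAA. For TATAAA the members thus lay below all genes but above the tested genes, while for the other motifs they lay above both. These matches describe letters in a window and are not evidence of binding.

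Ribosomal protein mRNA made up several percent of the counted kidney RNA. In noncystic Pkd2+/+ kidneys the 89 genes took 3.45% of all counts in mouse 19, 3.75% in mouse 20 and 3.18% in mouse 21. The shares were 3.30%, 2.82% and 2.97% in noncystic Pkd2 Δ17/Δ17, 3.55%, 4.23% and 4.03% in cystic Pkd2+/+, and 3.50%, 3.28% and 3.60% in cystic Pkd2 Δ17/Δ17 kidneys. The group means were 3.46% ± 0.285, 3.03% ± 0.250, 3.94% ± 0.348 and 3.46% ± 0.163 (SD, n = 3). The lowest mouse was noncystic with the deletion and the highest was cystic without it, and neighbouring groups overlapped. After scaling by TMM (trimmed mean of M-values, a factor that corrects library totals for a few very abundant or changed genes) the means were 3.67% ± 0.323, 3.19% ± 0.326, 3.74% ± 0.348 and 3.27% ± 0.112, so most of the difference between cystic and noncystic kidneys was not present on that scale.

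**Figure D1:**
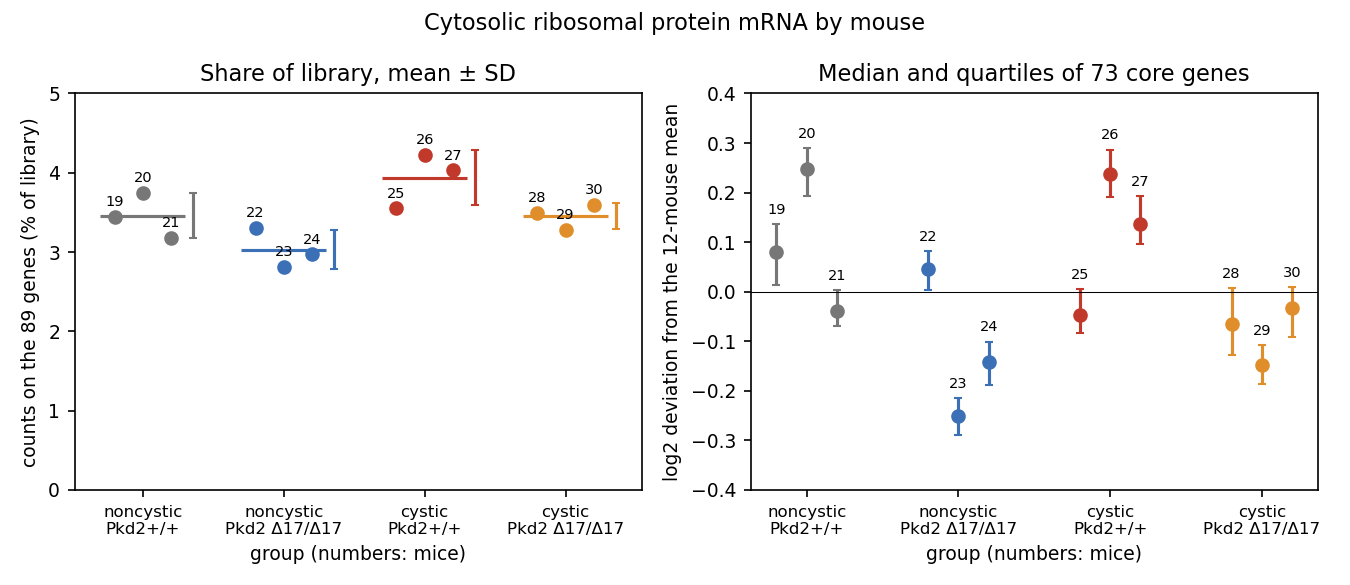
Left, counts on the 89 ribosomal protein genes as percent of the library, a point per mouse with its number, the group mean as a line and the SD as a bar beside it. Right, for the 73 core genes at an average log2CPM of 5 or more, the median (point) and quartiles (bar) over genes of the log2 deviation, TMM-scaled, from the mean of the 12 mice. Mice 20 and 26 are highest and mouse 23 lowest on the log2 scale, and in each setting the mice with the deletion lie lower on average but overlap those without it.

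The members moved together from mouse to mouse. For the 73 core genes (subunit and stalk genes at an average log2CPM of 5 or more) the median deviation from the mean of all mice, on the log2 scale with TMM factors, was 0.08, 0.25 and -0.04 in noncystic Pkd2+/+, 0.05, -0.25 and -0.14 in noncystic Pkd2 Δ17/Δ17, -0.05, 0.24 and 0.14 in cystic Pkd2+/+, and -0.07, -0.15 and -0.03 in cystic Pkd2 Δ17/Δ17 kidneys. Pkd2+/+ mice 20, 26, 27 and 19 thus held the highest values, yet mouse 21 and mouse 25 lay among the deletion mice. The SD of this median between mice of a group was 0.13 on the log2 scale. The 73 values within a mouse share its library and are not replicates.

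Levels differed widely between members. Mean levels of the 73 core genes ran from 53.3 CPM for Rpl23a to 1193 CPM for Rps2. Per kb of exon, the highest were Rplp1 (1491 CPM per kb), a stalk protein, and Rps15 (861), Rps3a1 (765) and Rpl36 (736). The paralogues were lower as a group: Rpl7l1 and Rps27l were at 126.9 and 117.9 CPM, Rps4l and Rpl22l1 at 34.6 and 32.4 CPM, and the other tested paralogues at 0.301 to 2.62 CPM. Some core genes had very low counts. Rpl24 was at 0.803 CPM, Rps10 at 4.56 CPM and Rpl13a at 14.6 CPM. They share 47.0% (Gm28037), 20.6% (a read-through of Rps10 and Nudt3) and 35.4% (Gm45713 and small RNAs) of their exon bases with another gene on the same strand in GENCODE M21. The counting leaves out reads that fall on 2 genes. The part of these overlaps in the low levels was not tested, and the values of these genes are uncertain. Over 50% of the exon bases of Rpl35 and Rpl23a (66.2% and 62.3%) are shared with a gene on either strand, and the strand setting of the counting is not given in the sources used here.

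The first comparison asks how ribosomal protein mRNA differs between cystic and noncystic kidneys with an intact Pkd2 3′-UTR. Almost no member passed the test with TMM factors, and the count depended on the scaling, as given below. By edgeR's quasi-likelihood test, adjusted by Benjamini-Hochberg over all tested genes, 0 of 87 members were higher and 1, Rpl3l, was lower in cystic kidneys at an adjusted p under 0.05, against 16.9% of all 24642 tested genes called higher and 14.2% called lower. At an unadjusted p under 0.05 the count was 7 of 87 members, beside 9676 of all 24642 tested genes. DESeq2's Wald test called 1 member higher (Rpl10a) and 2 lower (Rpl3l and Rps27l). Of the genes for which it gave an adjusted p, it called at least 17.9% higher and 17.3% lower. The median log2 fold change of the members was 0.01 (quartiles -0.07 to 0.08), beside 0.02 over all genes tested (quartiles -0.46 to 0.47), and 48 members were above 0 and 39 below. That split was not stable: 53 were below 0 with DESeq2's size factors (median -0.01), and 23 to 61 when a single mouse was left out. The median standard error of a member was 0.10 on the log2 scale. In 5 members the groups did not overlap: Rplp0, Rps4x and Rps3a3 were higher and Rpl3l and Rpl39l lower in each cystic mouse, which is 5 of 87 where 41.7% of all tested genes showed no overlap. P-values here set a difference between groups against the spread between mice of the same group, estimated over all 4 groups.

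The size of this difference depended on how libraries were scaled. The 6 cystic libraries had TMM factors of 1.04 to 1.08 and the 6 noncystic libraries 0.933 to 0.972, and mitochondrial genes took 3.06% to 3.97% of cystic and 6.04% to 6.60% of noncystic counts. With library totals in place of TMM factors, 16 members were called higher and Rpl3l lower (25.4% of all genes were called higher), and the median of the members was 0.17. The study's methods name limma-trend for differential expression. Run here on library totals, limma-trend called 18 higher and 1 lower (25.6% of all genes higher), with a median of 0.17. The change of scale moved the median over all genes by 0.16, and relative to that median the members were at -0.01 by either scale. With library totals the members called higher had log2 fold changes of 0.24 for Rpl9 to 0.40 for Rpl12.

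Among large subunit genes 23 of 43 were above 0, and none was called. Rpl12, which forms the base of the stalk, was at 435, 489 and 395 CPM in noncystic Pkd2+/+ and at 458, 567 and 537 CPM in cystic Pkd2+/+ kidneys. Its log2 fold change was 0.24 ± 0.11 (SE), with an adjusted p of 0.116 by edgeR's quasi-likelihood test. Mouse 25 lay within the noncystic range. Rpl10a, a protein of the L1 stalk, was at 358, 394 and 341 against 393, 458 and 432 CPM, a log2 fold change of 0.23 ± 0.09 with an adjusted p of 0.0519 by the same test. Only its lowest cystic value lay within the noncystic range, just under the highest noncystic one. At the other end Rpl36 was at 318, 365 and 288 against 247, 309 and 310 CPM (-0.17 ± 0.11), and Rpl35a, Rpl30, Rpl38 and Rpl26 were at -0.16, -0.16, -0.13 and -0.11 on the log2 scale, none past the test. Rpl15, whose start carries the longest run printed above, was at 0.19 ± 0.10.

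Small subunit genes had 19 of 30 members above 0, again with none called. Rps4x, encoded on the X chromosome (chrX:102184941-102189394, minus strand), was at 623, 676 and 595 CPM in noncystic and 679, 803 and 737 CPM in cystic Pkd2+/+ kidneys. On this TMM scale each cystic mouse was above each noncystic mouse by a narrow margin, and the log2 fold change of 0.23 ± 0.09 had an adjusted p of 0.0664 by edgeR's quasi-likelihood test. Rps6, the substrate of S6 kinases and carrier of a pyrimidine run at its start, was at 475, 527 and 453 against 485, 590 and 559 CPM (0.17, adjusted p 0.207 by the same test). Its groups overlapped. Rps20, Rps26 and Rps12 were at 0.18, 0.18 and 0.16 on the log2 scale, and Rps23, Rps10 and Rps21 at -0.13, -0.13 and -0.10. None of these passed the test.

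The 3 stalk proteins recruit the GTPase elongation factors to the ribosome. Rplp0, which anchors the stalk, was at 981, 1117 and 1052 CPM in noncystic and 1137, 1306 and 1174 CPM in cystic Pkd2+/+ kidneys. These groups did not overlap, but the log2 fold change of 0.20 ± 0.09 did not pass the test (adjusted p 0.103 by edgeR's quasi-likelihood test). Rplp1 and Rplp2, the acidic proteins that dimerize on Rplp0, were at 0.03 and 0.05 on the log2 scale.

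**Figure D2:**
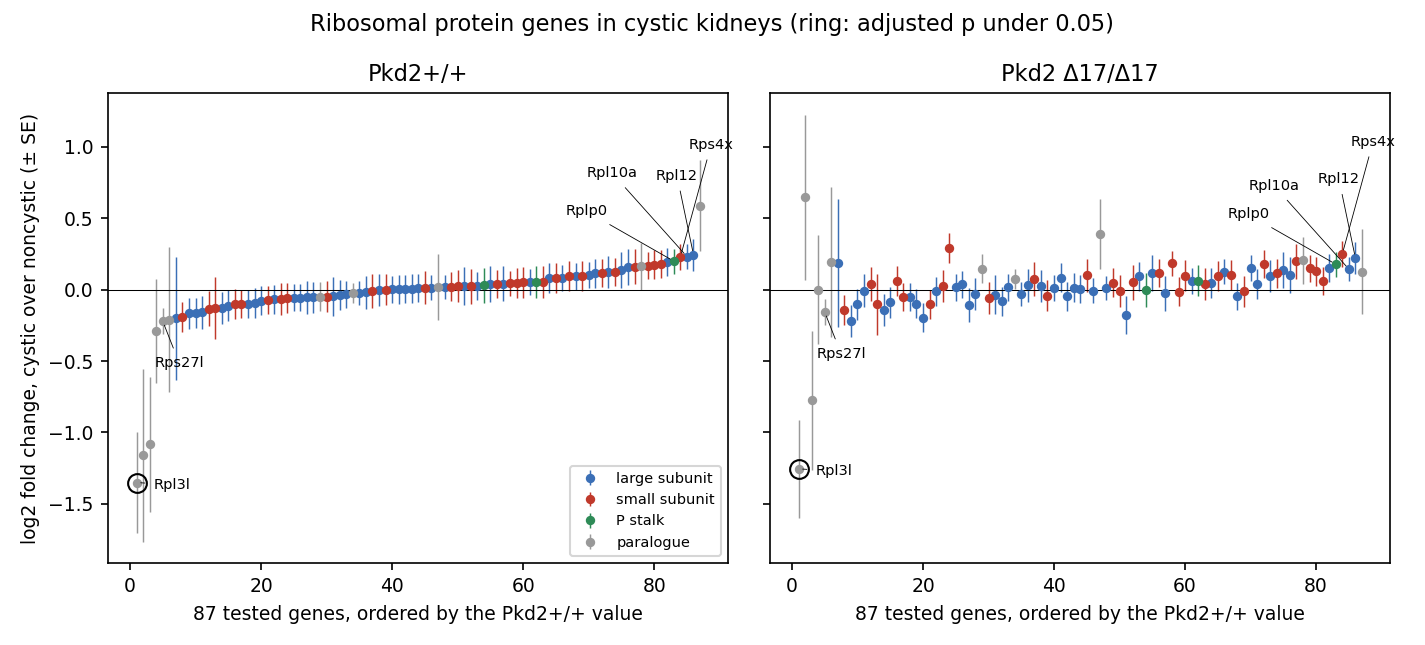
Log2 fold change with SE (bars) of the 87 tested genes, cystic over noncystic, in Pkd2+/+ kidneys (left) and in Pkd2 Δ17/Δ17 kidneys (right), both in the order of the Pkd2+/+ values and coloured by role. Most genes lie close to 0 in both panels, and a ring marks the 1 gene past the adjusted threshold in each, Rpl3l at -1.35 and -1.26.

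The paralogues spread more than the core genes, and their median SE was 0.32. Rpl3l (chr17:24727820-24736143, plus strand), the paralogue of Rpl3 used in heart and skeletal muscle, was at 1.04, 0.969 and 1.07 CPM in noncystic and 0.426, 0.294 and 0.471 CPM in cystic Pkd2+/+ kidneys. Its level was low in all mice, at 6 to 27 counts. The log2 fold change was -1.35 ± 0.35 with an adjusted p of 0.0072 by edgeR's quasi-likelihood test. The summed level of 3 skeletal muscle markers was 3.43 to 4.63 CPM in noncystic and 2.63 to 4.002 CPM in cystic Pkd2+/+ kidneys, with 0 of 3 called and none at 0 counts in all mice. Its part in the Rpl3l value was not tested. Rps27l, a paralogue induced by p53, was at 136, 152 and 120 against 108, 126 and 116 CPM (-0.22 ± 0.09, adjusted p 0.0802 by the same test), with overlapping groups. Rpl39l and Rpl36al, at 0.301 and 0.448 CPM, had values of -1.16 ± 0.60 and -1.08 ± 0.47, neither past the test. Rpl7l1, Rpl22l1 and Rps4l, which are better expressed, were at -0.03, -0.05 and 0.16. The remaining tested paralogues were Rps3a3 (0.59), Rps3a2 (0.02), Rpl6l (-0.29) and Rpl32l (-0.21), of which none passed the test. GENCODE M21 lists Rps3a3, Rps3a2, Rpl6l, Rpl32l and Rps12l1 as processed pseudogenes and Rps4l as a transcribed processed pseudogene.

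The same comparison in Pkd2 Δ17/Δ17 kidneys asks whether cystic and noncystic kidneys differ when Pkd2 lacks the motif. Again 0 members were called higher and Rpl3l was called lower, against 12.8% and 10.2% of all genes. The unadjusted count was 3 of 87 members, beside 8080 of 24642 tested genes. DESeq2 called 1 higher and 1 lower, where it called at least 14.1% higher and 13.77% lower of the genes with an adjusted p. With limma-trend 18 were higher and 1 lower, where it called 22.1% of all genes higher and 6.89% lower. The median was 0.04 with 54 members above 0. Rpl3l was at 1.04, 1.47 and 1.21 CPM in noncystic and 0.625, 0.489 and 0.433 CPM in cystic Pkd2 Δ17/Δ17 kidneys, without overlap, a log2 fold change of -1.26 ± 0.34 with an adjusted p of 0.013 by edgeR's quasi-likelihood test. This call was lost without mouse 23 or without mouse 30. There was no overlap between groups for 7 members (Rplp0, Rps4x, Rps13, Rps15a and Rpl7l1 higher, Rpl3l and Rpl36al lower) where 37.9% of all genes showed none. Rps4x was at 614, 548 and 522 against 675, 651 and 676 CPM (0.25, adjusted p 0.0568 by the same test). Over the 73 core genes the log2 fold changes of the 2 genotypes, which share no mice, had Pearson's r 0.70 and Spearman's rho 0.71, and 54 of 73 had the same sign. That correlation is across genes of the same libraries and is given as a description.

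The proportions of the ribosomal protein mRNAs among themselves were compared next, and few passed the test. For this, chosen after seeing the data, each mouse was scaled to the median of its 73 core genes, which sets their median change to 0 by construction, and cystic were compared with noncystic kidneys over both genotypes. By edgeR's quasi-likelihood test 2 of 87 members were higher, against 15.6% of all genes, and 4 lower, against 14.9%. The members called higher were Rpl12 (0.21 ± 0.07, adjusted p 0.0208) and Rps4x (0.22 ± 0.07, adjusted p 0.021). Those called lower included Rpl3l (-1.33 ± 0.28, adjusted p 0.00103), Rps27l (-0.21 ± 0.07, adjusted p 0.021) and Rpl36 (-0.21 ± 0.07, adjusted p 0.0223), all by the same test. These shares are below those of all genes.

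Scaling to the core median takes out the variation between mice that the members share, so their spread within a group is small in part by construction. Rpl12 and Rpl36 are given from among the genes that passed the test on these same values. Relative to the core median of the same mouse, on the log2 scale, Rpl12 was between -0.09 and -0.05 in the 6 noncystic mice and between 0.00 and 0.11 in the 6 cystic mice. Rpl36 (chr17:56613416-56614243, plus strand), a short large subunit protein, was between -0.56 and -0.44 in noncystic and between -0.84 and -0.73 in cystic mice. Neither gene overlapped between cystic and noncystic mice. Among the 73 core genes, 1 (Rpl12) was higher in all 6 cystic than in all 6 noncystic mice, where 6.88% of all tested genes were. In the opposite direction 15 of 73 were lower without overlap, where 7.33% of all tested genes were, among them Rpl11, Rpl19, Rpl21, Rpl23, Rpl26, Rpl27a, Rpl30, Rpl35a, Rpl36, Rpl37, Rpl38, Rps15, Rps25 and Rps28. Of those named, Rpl36 passed the adjusted test. The shares of core genes and of all genes are not like for like, because only the core genes are scaled to their own median. No excess or lack of core genes can be read from them. Rpl11 is known for binding Mdm2 when ribosome assembly fails.

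The second question is whether removal of the Pkd2 motif changes ribosomal protein mRNA in cystic kidneys. No member passed the test, while 1.19% of all genes were called higher and 1.04% lower. The smallest adjusted p was 0.0966, for Rps20, by edgeR's quasi-likelihood test. By the same test 34 of 87 members had an unadjusted p under 0.05, beside 3532 of 24642 tested genes. DESeq2's Wald test called 3 members lower (3.52% of the genes for which it gave an adjusted p) and limma-trend called 0. The estimates lay on one side: 78 of 87 were below 0, with a median of -0.19 (quartiles -0.24 to -0.12), beside a median of 0.00 over all genes tested and 0.00 over the 6895 genes at an average log2CPM of 5 or more. In 34 members each cystic deletion mouse was below each cystic Pkd2+/+ mouse, against 10.2% of all tested genes, and in 2 (Rpl39l and Rps10) each was above. With library totals and with DESeq2's size factors this count was 24 and 25. The members share the same 6 libraries, and the median over core genes per mouse, given above, overlapped between the groups through mouse 25.

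All 43 large subunit genes were below 0, with a median of -0.21, and in 21 of them the groups did not overlap, among them Rpl6, Rpl10, Rpl10a, Rpl11, Rpl13, Rpl14, Rpl18, Rpl21, Rpl23, Rpl27, Rpl28, Rpl29, Rpl31, Rpl32, Rpl35, Rpl36, Rpl37, Rpl37a, Rpl38 and Rpl41. The 43 values ran from -0.40 for Rpl29 to -0.02 for Rpl24, whose counts are uncertain. Rpl29 (chr9:106429454-106431568, plus strand) was lowest. It was at 364, 429 and 408 CPM in cystic Pkd2+/+ and 342, 347 and 224 CPM in cystic Pkd2 Δ17/Δ17 kidneys. The log2 fold change was -0.40 ± 0.13, with an adjusted p of 0.153 by edgeR's quasi-likelihood test. Mouse 30 stood apart, and without it the value was -0.22. Rpl36, at 247, 309 and 310 against 239, 230 and 245 CPM, had a log2 fold change of -0.28 ± 0.11. Rpl12 was at 458, 567 and 537 against 451, 397 and 475 CPM, with overlap.

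Of the small subunit genes, 28 of 30 were below 0, with a median of -0.18, and 10 had each deletion mouse lower, among them Rps4x, Rps6, Rps15, Rps19, Rps20, Rps26, Rps27 and Rps28. Rps20 (chr4:3831334-3835665, minus strand) was at 313, 418 and 388 CPM in cystic Pkd2+/+ and 293, 289 and 306 CPM in cystic Pkd2 Δ17/Δ17 kidneys, a log2 fold change of -0.33 ± 0.10. All 3 deletion mice lay below mouse 25, the lowest of the others. Without mouse 25 its adjusted p became 0.00918 by edgeR's quasi-likelihood test. Rps6 was at 485, 590 and 559 against 480, 451 and 475 CPM, with the deletion mice just below mouse 25. In the other direction Rps15a was at 228, 243 and 215 against 227, 251 and 289 CPM (0.16 ± 0.11), and Rps10, whose counts are uncertain, at 4.10, 3.33 and 4.28 against 4.66, 4.40 and 5.48 CPM (0.31 ± 0.21). Rps13 was at 0.00 ± 0.09.

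The 3 stalk genes were below 0 as well. Rplp1 (chr9:61913284-61914542, minus strand) was at 730, 911 and 840 CPM in cystic Pkd2+/+ and 679, 630 and 697 CPM in cystic Pkd2 Δ17/Δ17 kidneys, a log2 fold change of -0.31 ± 0.12 with an adjusted p of 0.24 by edgeR's quasi-likelihood test. Rplp2 had -0.24 and Rplp0 -0.15. Rplp0 and Rplp1 did not overlap between the groups and Rplp2 did. The paralogues had no common direction: 4 of 11 tested were below 0 (1 of them, Rps27l, with each deletion mouse lower), Rpl7l1 was at 0.01, Rpl3l at 0.37 ± 0.37 and Rpl39l at 1.26 ± 0.59 (adjusted p 0.348 by the same test).

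**Figure D3:**
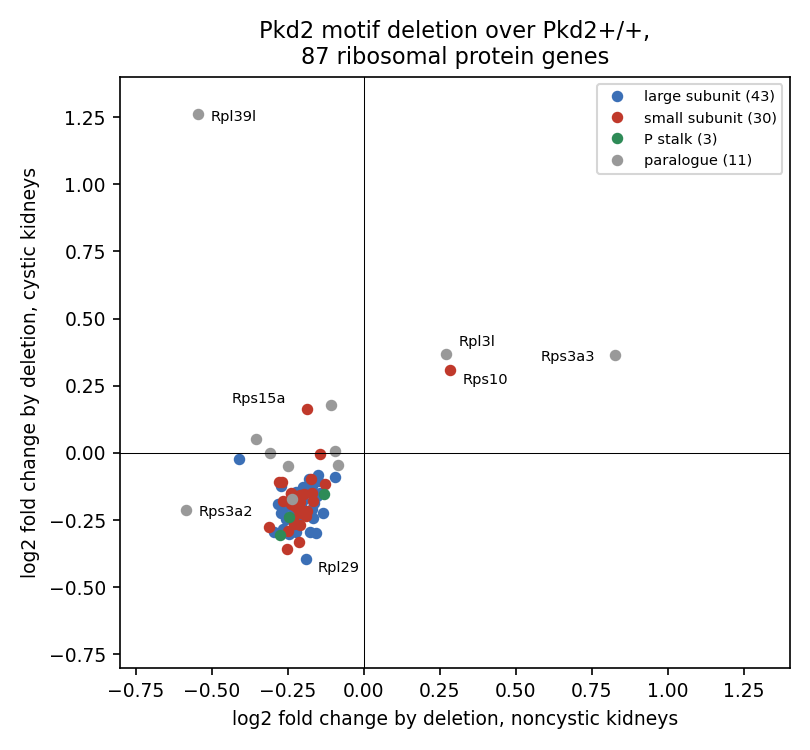
Log2 fold change of each of the 87 tested genes by the Pkd2 motif deletion, in noncystic kidneys (horizontal) and cystic kidneys (vertical), coloured by role. The core genes form a cloud below 0 on both axes, near -0.2, while several low-count paralogues and Rps10 lie elsewhere, and no point passed the adjusted test on either axis.

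In noncystic kidneys the deletion gave values of the same size. No member was called, and 0.00406% of all genes (1 gene) were called in either direction. By edgeR's quasi-likelihood test 1556 of 24642 tested genes had an unadjusted p under 0.05. Among members the count was 35 of 87 by that test, 42 by DESeq2, which called 0, and 38 by limma-trend, which called 0. It was 55 in edgeR without the cutoff on low counts and 17 with Xist as a covariate, where the median was -0.21. For these other fits the unadjusted count over all genes was not taken, so their member counts have no background beside them. Xist, the RNA of the inactive X chromosome in females, was at 431 to 811 CPM in 1 of 3 noncystic and 2 of 3 cystic Pkd2+/+ mice and in 2 of 3 noncystic and 1 of 3 cystic Pkd2 Δ17/Δ17 mice, and at 5.47 to 7.74 CPM in the others. The smallest adjusted p was 0.771. In 84 of 87 members the estimate was below 0, with a median of -0.22 (quartiles -0.25 to -0.17) beside 0.01 over all genes, and 43 of 43 large subunit and 29 of 30 small subunit genes were among them. In only 5 members (Rpl9, Rpl17, Rpl22, Rps20 and Rps3a2) was each deletion mouse lower, where 5.09% of all genes showed this. Rps20 was at 316, 356 and 315 CPM in noncystic Pkd2+/+ and 297, 266 and 288 CPM in noncystic Pkd2 Δ17/Δ17 kidneys. Its range without the deletion lay above that with it in both settings. Rpl22 was at 274, 297 and 272 against 260, 205 and 230 CPM (-0.28 ± 0.10). Mouse 22 was the highest deletion mouse for both genes.

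The 2 settings were also compared directly. The interaction, which tests whether the effect of the deletion differs between cystic and noncystic kidneys, called 0 members by edgeR, against 0.0122% of all genes. At an unadjusted p under 0.05 were 2 of 87 members and 2053 of 24642 tested genes. DESeq2 and limma-trend also called 0, with 1 and 2 at an unadjusted p under 0.05, for which no count over all genes was taken. The median interaction of the members was 0.02, with a median SE of 0.15. Over the 73 core genes, 72 had the same sign in both settings, with Pearson's r 0.35 and Spearman's rho 0.36 across genes. The settings share no mice.

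The mean of the deletion effect over both settings, a contrast added after seeing the data, rested on all 12 mice. By edgeR's quasi-likelihood test it called 0 members, with a smallest adjusted p of 0.0848, where 0.252% of all genes were higher and 0.191% lower. At an unadjusted p under 0.05 by this test were 68 of 87 members and 3486 of 24642 tested genes. DESeq2's Wald test called 22 members lower (2.33% of the genes with an adjusted p). Without the cutoff on low counts, edgeR called 34 lower (1.86% of the genes in that fit). The limma-trend fit called 0, with 68 at an unadjusted p under 0.05, for which no count over all genes was taken. The median was -0.20 with 82 of 87 below 0. The calls thus lay on either side of the threshold with the tool, while the estimate was close to -0.2 by each. Scaled to the core median, the same contrast called 0 members at the adjusted threshold, where 1.30% of all genes were called higher and 0.0325% lower. With shares this small, that count does not show that no member stood apart from the others.

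Transcript length moved with the same comparisons. This division of genes was made after seeing the data. The 73 core genes had a median transcript length of 827 bases, and 71.2% were under 1000 bases. The 371 other genes at an average log2CPM of 5 or more with transcripts under 1000 bases had a median log2 fold change by the deletion of -0.08 in cystic and -0.15 in noncystic kidneys, where 67.7% and 94.9% of them were below 0. For the 3499 genes over 3000 bases the medians were 0.03 and 0.04. The core genes were at -0.21 and -0.22, lower than other short genes in both settings. Between cystic and noncystic Pkd2+/+ kidneys the short genes were at -0.29 while the core genes were at 0.02. The part of transcript length in the values of the ribosomal protein genes was not tested.

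**Figure D4:**
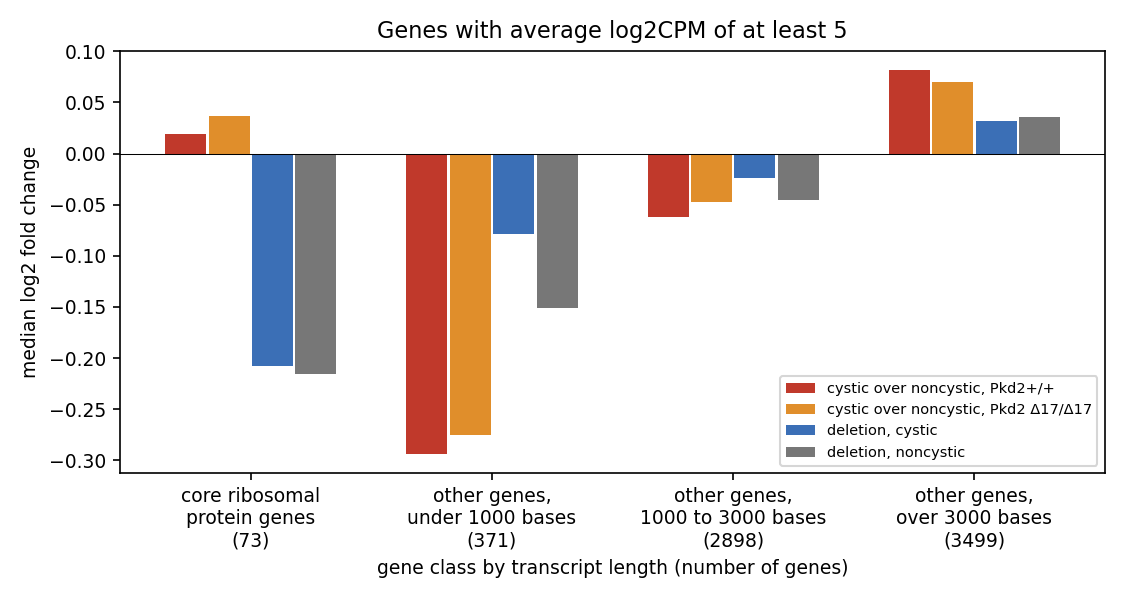
Median log2 fold change (vertical axis) of the core ribosomal protein genes and of other genes in 3 classes of transcript length, all at an average log2CPM of 5 or more, in 4 comparisons (bar colours). With the deletion the core genes lie below other short genes, at -0.21 and -0.22 against -0.08 and -0.15. In cystic over noncystic kidneys the core genes are near 0 and other short genes are at -0.29 and -0.28.

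Within the core genes, values were set beside length and the pyrimidine run. Over the 73 genes, length and the value by the deletion had Spearman's rho 0.28 in cystic and 0.43 in noncystic kidneys. Pearson's r with log2 length was 0.35 and 0.38. In cystic over noncystic kidneys rho with length was 0.15 in Pkd2+/+ and 0.19 in Pkd2 Δ17/Δ17. For run length, over 53 core genes, rho with the value by the deletion was -0.23 in cystic and 0.06 in noncystic kidneys. The 24 shortest core genes (345 to 667 bases) had a median of -0.23 by the deletion in cystic and -0.24 in noncystic kidneys, and the 24 longest (946 to 5130 bases) -0.19 in both. The 17 core genes with a C or T run of at least 8 bases at the annotated start had medians of -0.24 and -0.21, and the 36 without such a run -0.20 and -0.21. In cystic over noncystic Pkd2+/+ kidneys the medians with and without the run were both 0.02. These are descriptions of genes measured in the same libraries.

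Genes that work with the ribosomal proteins were examined as lists. Of 24 translation factors and other TOP mRNAs, 6 were higher in cystic than noncystic Pkd2+/+ kidneys and 0 lower, by the test for which 16.9% and 14.2% of all genes were called. They were Hnrnpa1 (0.74 ± 0.09), an RNA-binding protein, Npm1 (0.32 ± 0.08), a nucleolar chaperone, Eif4a1, Eef1g, Pabpc1 and Eif3a, the last with 0.25 ± 0.07. Without mouse 19 or mouse 26 the count was 3. With the deletion in cystic kidneys 0 of 24 were called, 24 of 24 were below 0 and the median was -0.13. In noncystic kidneys 19 of 24 were below 0, with a median of -0.12. This direction was the one seen for the ribosomal protein genes, with a smaller size.

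Of 38 ribosome assembly factors, 14 were higher and 3 lower in cystic Pkd2+/+ kidneys, where 16.9% and 14.2% of all genes were. Their median was 0.16 where the ribosomal protein genes had 0.01. Rrp1b, a nucleolar processing factor, was at 0.90 ± 0.11, Nop58 and Fbl, core proteins of box C/D particles, at 0.54 ± 0.10 and 0.37 ± 0.09, and Ddx21 at 0.46 ± 0.09. Those lower were Utp20 (-0.73), Nop10 (-0.54) and Sbds (-0.52). With the deletion in cystic kidneys 0 of 38 were called (1 without mouse 25) and 31 were below 0, with a median of -0.10. Of 19 genes of RNA polymerase I and its factors, which transcribe ribosomal RNA, 2 were higher (Taf1c 0.43, Polr1b 0.29) and 1 lower (Polr2k -0.42, a subunit shared by the polymerases), beside 16.9% and 14.2% of all genes. Their count was 1 without mouse 20 and 5 without mouse 21 or 23. None was called with the deletion in cystic kidneys.

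Of 25 genes of mTORC1 and Myc regulation, which act on the ribosomal protein genes and their mRNAs, 3 were higher in cystic Pkd2+/+ kidneys and 3 lower, where 16.9% and 14.2% of all genes were. Myc, an activator of ribosomal protein transcription, was at 1.17 ± 0.13 on the log2 scale (adjusted p 2.89e-06 by edgeR's quasi-likelihood test), Eif4ebp1, an inhibitor of cap-dependent translation, at 0.53 ± 0.10 and Mnt at 0.35 ± 0.13. Deptor, an inhibitor of mTOR, was at -0.62 ± 0.07, Larp4 at -0.58 ± 0.07 and Mxi1, a Myc antagonist, at -0.52 ± 0.08. With the deletion in cystic kidneys Eif4ebp1 fell by 0.46 (adjusted p 0.0211) and Larp4 rose by 0.29 (adjusted p 0.0317 by the same test). The list had 0 calls there without mouse 26, 27, 28 or 29 and 1 without mouse 30. Myc was at -0.32 ± 0.12 and did not pass.

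Genes of the mitochondrial ribosome, whose proteins are made in the cytosol and imported, were measured in the same kidneys. Of 77 tested, 55 were lower in cystic Pkd2+/+ kidneys and 0 higher, with a median of -0.38, where 14.2% of all genes were lower. In Pkd2 Δ17/Δ17 kidneys 39 were lower, with a median of -0.26, where 10.2% of all genes were. Of the 6895 genes at an average log2CPM of 5 or more, 1903 and 1512 were lower in these comparisons. In Pkd2+/+ kidneys Mrps6 was at -1.36 ± 0.13 and Mrpl50 at -0.69 ± 0.08. The deletion in cystic kidneys left the median at -0.03, with Mrps6 called higher (0.53 ± 0.13, adjusted p 0.0411 by edgeR's quasi-likelihood test). The list had 0 calls there in 8 of the 12 fits without a single mouse (19, 23, 24, 25, 27, 28, 29 or 30). In noncystic kidneys the median was -0.13 with 0 called. Proximal tubule markers, of a cell type rich in mitochondria, moved with the cystic comparison (6 of 6 called lower in cystic Pkd2+/+ kidneys), as did macrophage markers (6 of 6 higher) and markers of proliferating cells (4 of 4 higher). Markers of red blood cells (5 of 5), podocytes (3 of 3) and fat (3 of 3) were lower there. In Pkd2 Δ17/Δ17 kidneys 3 of 3 adrenal markers were called higher, with a summed level of 4.79 to 240.1 CPM in cystic and 4.90 to 7.09 CPM in noncystic mice. With the deletion in cystic kidneys 3 of 6 proximal tubule markers were called higher and 3 of 6 macrophage markers lower. With library totals, by which 25.4% of all genes were called higher and 10.02% lower in cystic Pkd2+/+ kidneys, 12 of the 24 translation factors were higher and 0 lower, 26 of the 38 assembly factors higher and 3 lower, 7 of the 19 polymerase I genes higher and 0 lower, 8 of the 25 regulators higher and 3 lower, and 0 of the 77 mitochondrial ribosome genes higher and 31 lower. The part of cell composition in the values of the ribosomal protein genes was not tested.

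**Figure D5:**
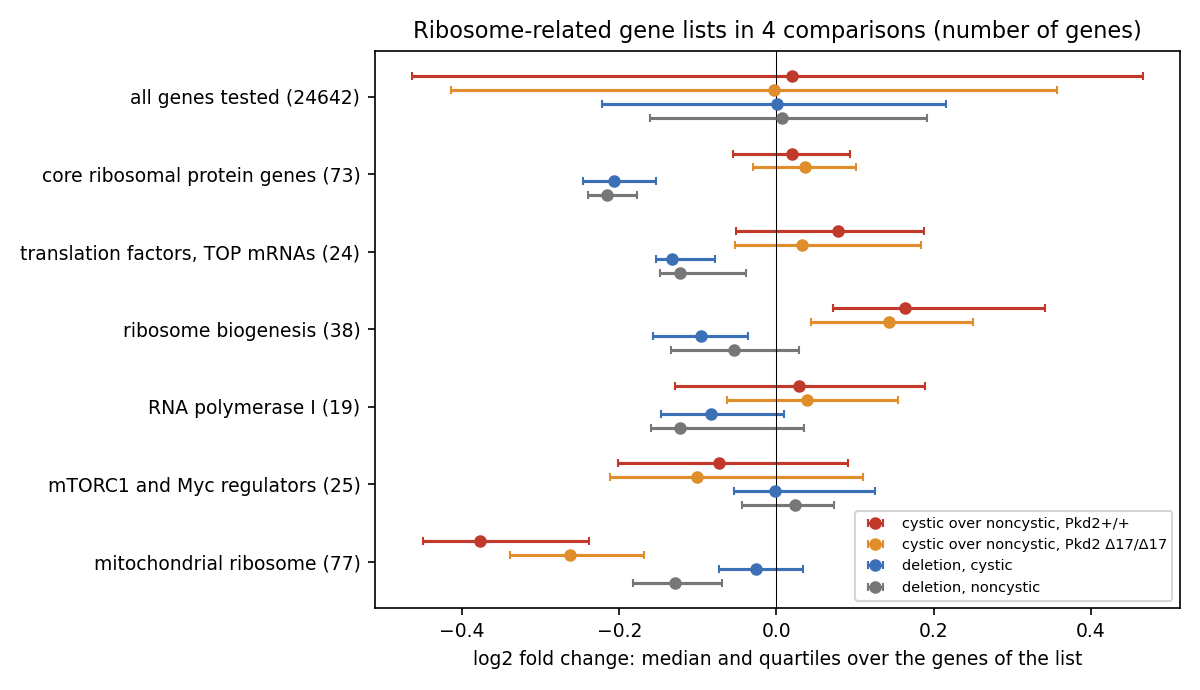
Median (point) and quartiles (bar) of the log2 fold change over the genes of each list, in 4 comparisons (colours), with the number of genes in brackets. The core ribosomal protein genes lie near 0 in the cystic comparisons and near -0.2 with the deletion, whereas mitochondrial ribosome genes lie at -0.38 and -0.26 in the cystic comparisons and assembly factors at 0.16 and 0.14.

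Proteins of the cytosolic ribosome whose genes carry other kinds of symbol (4 genes) were kept apart. Rpsa, of the small subunit, was at 761, 890 and 711 CPM in noncystic Pkd2+/+, 768, 602 and 647 in noncystic Pkd2 Δ17/Δ17, 802, 1002 and 932 in cystic Pkd2+/+ and 754, 696 and 791 in cystic Pkd2 Δ17/Δ17 kidneys. Each cystic deletion mouse was below the cystic Pkd2+/+ range (-0.29 ± 0.11, adjusted p 0.248 by edgeR's quasi-likelihood test). Rack1, a scaffold on the small subunit, was at 0.21 ± 0.10 in cystic over noncystic Pkd2+/+ kidneys. Fau, a ubiquitin-like fusion of a small subunit protein, was at -0.13. All 4 were below 0 with the deletion in cystic kidneys, with a median of -0.21, and none of the 4 was called in either cystic comparison or either deletion comparison.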

How the data were processed

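RNA was extracted from whole kidneys with a Qiagen miRNEASY kit and libraries were made by Genewiz. The authors trimmed reads with Trim Galore 0.6.3, aligned them to GRCm38 with STAR 2.5.3a and counted reads per gene with STAR on the Ensembl release 94 models. They deposited raw whole-number counts of 54532 genes in 12 mice, used here as deposited. The 343 genes without a name hold 0.0225% of the reads and stayed in the fit.

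The test was that of edgeR 4.0.16 in R 4.3.3 (quasi-likelihood test, TMM factors, prior count 2, one mean per group over 12 mice, 8 residual degrees of freedom), after dropping genes under an average log2CPM of -3. P-values were adjusted by Benjamini-Hochberg over 24642 genes with a threshold of 0.05, and all adjusted p-values are from this test unless DESeq2 1.42.0 or limma 3.58.1 is named. The scripts were tested on simulated data. Alternatives were library totals, DESeq2's size factors, DESeq2's Wald test, limma-trend (prior count 3), no cutoff, filterByExpr, pseudogene rows added, Xist as a covariate, the compared groups alone, and each mouse left out.

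Named genes were the 10 highest and 10 lowest members with an average log2CPM of at least 1 in cystic over noncystic Pkd2+/+ kidneys, the 4 highest and 4 lowest for the deletion in cystic kidneys, the stalk genes and the paralogues. Others named with values (Rpl22, Rpl24, Rpl13a and those called or not overlapping) were chosen after their values were seen. A few genes are counted but not reported here by name. Members, lists and this rule were chosen with earlier results of these data known. The mean contrast, the scaling to core genes, the length classes and the paralogues Rpl6l, Rpl32l and Rps12l1 were added after seeing the data. Coordinates are from GENCODE M21 and start sequences from RefSeq, both on GRCm38.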

Additional observations from a re-analysis of the deposited data

How the results depend on the processing

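With library totals 17 members were called between cystic and noncystic Pkd2+/+ kidneys (median 0.17) and 18 between the Pkd2 Δ17/Δ17 groups (median 0.19). With limma-trend 19 were called in both, with medians of 0.17 and 0.19. Of all tested genes, library totals called 25.4% higher and 10.02% lower in Pkd2+/+ kidneys, and 21.6% and 6.72% in Pkd2 Δ17/Δ17 kidneys. For limma-trend these shares were 25.6% and 10.2%, and 22.1% and 6.89%. DESeq2's Wald test called 3 and 2, the fit without a cutoff 2 and 2, and filterByExpr 3 and 2. In Pkd2+/+ kidneys the fit without a cutoff called 12.8% of its genes higher and 10.8% lower, and filterByExpr 23.8% and 21.3%. In Pkd2 Δ17/Δ17 kidneys these shares were 9.88% and 8.29%, and 18.7% and 16.0%. The shares for DESeq2 are given with each comparison above. For the deletion in cystic kidneys DESeq2 called 3 members and the fit without a cutoff 8, all lower, where that fit called 2.48% of its genes lower. For its mean over both settings they called 22 and 34.

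Leaving out each mouse in turn gave 1 to 6 calls between cystic and noncystic Pkd2+/+ kidneys (6 without mouse 25, and 2 without mouse 21, 23 or 26, where the full set gave 1), with medians of -0.07 to 0.08. Between the Pkd2 Δ17/Δ17 groups it gave 0 to 2 calls, with medians of -0.05 to 0.11. It gave 0 to 2 calls for the deletion in cystic kidneys (2 without mouse 25) and 0 to 14 for its mean (14 without mouse 25). The medians were -0.26 to -0.14 for the deletion in cystic and -0.31 to -0.15 in noncystic kidneys, -0.25 to -0.17 for the mean, and -0.06 to 0.11 for the interaction. The other alternatives kept these counts within 1.5 times and moved these medians by less than the spread between mice. The median between cystic and noncystic Pkd2+/+ kidneys, near 0, changed sign (-0.01 with DESeq2's size factors), and both cystic medians and that of the interaction changed sign with single mice left out. Rpl3l, the only member that passed edgeR's test with TMM factors between cystic and noncystic Pkd2+/+ kidneys, kept its sign in every alternative run. The signs of called genes of the other lists, and of calls after scaling to the core median, were not followed through the alternatives. The cause of these changes was not tested, beyond the shift of all genes given with library totals. No paired analysis was possible because the groups share no replicate numbers. With 3 mice a group, the SE of a member (median 0.10 on the log2 scale) limits what could be called.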
